A study of Mus musculus with 12 samples.

Results

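The MHC class II genes and their master regulator Ciita were followed in the ileum of mice given zinc, a glucocorticoid, or both. They comprise 7 genes (Ciita, H2-Aa, H2-Ab1, H2-Eb1, H2-DMa, H2-DMb1 and Cd74), chosen by name as the rows whose Ensembl identifiers map to these symbols, out of 54838 genes in the count table. RNA-seq was performed on 12 ileum libraries of adult female C57BL/6J mice, with 3 libraries in each of 4 groups. Mice of the water + PBS group drank normal water for 7 days and received PBS, and those of the water + Dex group drank normal water and received 200 µg of dexamethasone (Dex), a synthetic glucocorticoid. The ZnSO4 + PBS and ZnSO4 + Dex groups drank 25 mM zinc sulphate over the same 7 days before the same injections. All ilea were taken 2 h after the injection. Whole ileum was used, so epithelium, lamina propria and any lymphoid follicle in the sample were sequenced together. The design asks what zinc does, what Dex does, and whether either effect depends on the other.

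MHC class II molecules present peptides from endocytosed material to CD4+ T cells. Dendritic cells, macrophages and B cells carry them at all times, and the epithelium of the small intestine, of the ileum in particular, also makes them, partly under the control of interferon-gamma. Their genes share a promoter module with an X box and a Y box. The RFX complex, CREB and NF-Y bind this module at all times, but the genes are transcribed only where CIITA, a coactivator that does not itself bind DNA, is recruited to it. Ciita in turn has separate promoters for dendritic cells, for B cells and for cells that respond to interferon-gamma, the last of which IRF1 activates. Peyer's patches of the ileum are rich in B cells, and a piece of ileum can hold many or few of them.

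H2-Aa (chromosome 17, 34282744 to 34287823 on GRCm38, the assembly that mm10 names) and H2-Ab1 (34257689 to 34269419) encode the alpha and beta chains of the I-A molecule. H2-Eb1 (34305867 to 34316674) encodes the beta chain of I-E, whose alpha chain C57BL/6 mice do not make. The gene of that alpha chain, H2-Ea-ps, had 0 reads in all 12 libraries, which allows at most 3 reads per library. H2-DMa (34119541 to 34139101) and H2-DMb1 (34153072 to 34160230) encode the H2-DM heterodimer, which helps to load peptides, and lie in the same MHC region of chromosome 17. Cd74 encodes the invariant chain that escorts new class II molecules. Ciita lies on chromosome 16 (10480059 to 10528418). All 7 are protein-coding genes, and the counts are sums over their exons.

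Promoter windows of 250 bases before and 50 after the start were found in RefSeq (GRCm38.p6) for 4 of the 7 genes, and none for Ciita, H2-Ab1 and Cd74. They were searched on both strands for the X box core (ACNGATG) and the Y box (CCAAT, read ATTGG on the other strand). The following 65-base stretches, all upstream of the RefSeq start on chromosome 17, show the module in H2-Eb1, the Y box of H2-Aa and, for comparison, the module in H2-DMb2 and H2-Eb2, class II genes outside the 7. They are written 5′ to 3′ on the strand of the gene, with the X box core, where there is one, and the Y box in capitals.
H2-Eb1, chr17:34305758-34305822, plus strand: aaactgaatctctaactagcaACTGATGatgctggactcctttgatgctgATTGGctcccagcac
H2-Aa, chr17:34287857-34287921, minus strand: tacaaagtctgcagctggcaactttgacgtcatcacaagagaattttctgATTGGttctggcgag
H2-DMb2, chr17:34145109-34145173, plus strand: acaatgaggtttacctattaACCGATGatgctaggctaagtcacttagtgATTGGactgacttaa
H2-Eb2, chr17:34325525-34325589, plus strand: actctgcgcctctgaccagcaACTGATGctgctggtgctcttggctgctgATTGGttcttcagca
In H2-Eb1 the X box core began 88 bases and the Y box 59 bases before the start, 29 bases apart. H2-DMb1 had the same pair 91 and 61 bases before its start, 30 bases apart. H2-DMb2 and H2-Eb2 also held it, with 30 and 29 bases between the boxes. H2-Aa had the Y box 48 bases before its start and no X box core of these letters within the stretch shown, the only one in its window being on the reverse strand 232 bases before the start. H2-DMa had a Y box 198 bases before its start and no X box core. The pair was thus found in 2 of the 4 genes with a window. A Y box was found in 37.4% and an X box core in 9.85% of all 32851 windows, and a pair with starts 25 to 35 bases apart in 0.0974% (32 windows). The letters of an interferon-stimulated response element (GAAANNGAA, in 8.56% of windows), of a gamma-activated sequence (TTCNNNGAA, in 8.3%) and of a glucocorticoid response element (ACANNNTGT, in 6.85%) were in none of the windows of H2-Aa, H2-Eb1, H2-DMa and H2-DMb1. A match in letters is a description only.

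In water + PBS mice, the 7 genes spanned a wide range of levels. On a scale corrected for exon length and library size (RPKM), Cd74 stood highest at 1210 ± 274 (SD, n = 3). The chains of the class II molecules themselves followed, with H2-Ab1 at 311 ± 56.9, H2-Eb1 at 285 ± 83.5 and H2-Aa at 259 ± 54.6, and these 3 did not differ beyond their spread. H2-DMb1 (46.5 ± 3.23) and H2-DMa (27.9 ± 5.64) were lower, and Ciita was the lowest at 8.21 ± 3.22. The length was that of all annotated exons of a gene, not of the transcript made. In counts scaled for library size alone, the means were 1090 for H2-DMa, 891 for Ciita and 890 for H2-DMb1. The order on this scale was the same in the other groups for Cd74 at the top and for H2-DMb1, H2-DMa and Ciita below the chains.

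The libraries held between 10760132 and 11827487 reads on genes. Fabp6, an ileal bile acid carrier, lay between 40671.9 and 88620.4 and Epcam, an epithelial adhesion molecule, between 16335.3 and 29364.3 normalised counts (counts divided by the effective library size and scaled to 11377723 reads). The treatments left their known marks: the zinc-binding metallothionein Mt1 rose with ZnSO4 (LFC, the log2 fold change, 4.79 in PBS mice) and the glucocorticoid target Fkbp5 rose with Dex (LFC 3.34 in water mice). B cell content differed widely between libraries of the same group. The summed normalised counts of 14 B cell markers were 536, 10501.1 and 2850.5 in water + PBS, 3978, 617.8 and 306.9 in water + Dex, 1574.5, 7845.8 and 269.5 in ZnSO4 + PBS, and 309, 367 and 1267.7 in ZnSO4 + Dex. The defining markers Cd79a and Ms4a1 were above 0 in every library. Ms4a1, which encodes CD20, ranged from 6.5 to 1406.7 normalised counts. Itgax (CD11c) lay between 148.2 and 330.1 and Adgre1 (F4/80) between 122.6 and 221.4, but 2 of 8 dendritic cell markers (Ccr7, from 1 to 161.5, and Flt3, from 28.7 to 124.4) and 1 of 10 macrophage markers (Lyz2, from 1468.1 to 4767.9) were called for a rise with the B cell score (the mean log2 level of the 14 B cell markers). These 3 were named after their values were seen. None of the 14 B cell markers was called by edgeR in any treatment comparison, and 2 had an unadjusted p under 0.05, both in ZnSO4 + Dex against water + PBS. All 14 nevertheless had LFCs below 0 in each of these comparisons. Their median was -0.53 for ZnSO4 in PBS mice and -1.61 in Dex mice. It was -1.54 for Dex in water mice, -2.35 in ZnSO4 mice and -2.93 for both treatments. Results are therefore given as measured, at an equal B cell score (the score entered as a covariate), and without the library with the most B cells of each group (water + PBS replicate 2, water + Dex replicate 1, ZnSO4 + PBS replicate 2 and ZnSO4 + Dex replicate 3).

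ZnSO4 lowered the genes that encode class II molecules and their helpers. In PBS mice, 6 of the 7 genes were called lower (adjusted p under 0.05 by edgeR's quasi-likelihood test over all genes, and an LFC beyond 0.8 in size) and none higher, where 0.954% of all 15938 tested genes were called lower. All 7 passed the filter on low counts. Their median LFC was -1.08, beside -0.01 over all tested genes. In bulk tissue, fewer cells that make these transcripts and less transcript per cell cannot be told apart.
H2-Aa had 9432.3, 13862.4 and 10248.7 normalised counts in water + PBS and 4379.5, 6028.3 and 3516.9 in ZnSO4 + PBS. Every ZnSO4 library lay below every water library, and its LFC was -1.27 (SE 0.24, adjusted p = 0.015). For its partner H2-Ab1, the values were 8092.7, 11001.8 and 8150.7 against 4283.3, 5222.9 and 3394.6, again without overlap (LFC -1.08, SE 0.22, adjusted p = 0.019). The I-E chain H2-Eb1 moved from 4970, 8411.1 and 5526.3 to 2955.8, 4333.4 and 2587 (LFC -0.94, SE 0.22, adjusted p = 0.035). In each of the 7 genes replicate 2 was highest in both groups, as it was in B cell markers.
The peptide-loading genes fell by as much. H2-DMa had 928.1, 1345.5 and 1010 normalised counts in water + PBS and 501.6, 659.8 and 398.3 in ZnSO4 + PBS (LFC -1.07, SE 0.18, adjusted p = 0.0087). Of its exonic bases, 10.4% overlap Brd2 on the opposite strand, and the strand setting of the counting is not given in the sources used here. H2-DMb1 showed the largest drop and the tightest libraries, from 899.8, 946.2 and 823.8 to 364.9, 385.3 and 327.9 (LFC -1.31, SE 0.20, adjusted p = 0.0046), a level of 0.404 times that of water mice. Cd74, which lies outside the MHC region (chromosome 18, 60803848 to 60812652), had 19891.8, 29224.7 and 20430.8 in water + PBS and 10042.2, 13634.3 and 8841.8 in ZnSO4 + PBS (LFC -1.10, SE 0.23, adjusted p = 0.021), also without overlap.
Ciita itself had 637.2, 1289.3 and 745.9 normalised counts in water + PBS and 341.3, 762.3 and 234.3 in ZnSO4 + PBS. These ranges overlapped, because ZnSO4 + PBS replicate 2 lay above 2 of the water libraries, and the difference did not pass the test (LFC -1.0, SE 0.46, 95% interval -2.0 to 0, adjusted p = 0.25). At an equal B cell score all 7 genes were called lower, Ciita with an LFC of -0.89 (SE 0.16, adjusted p = 0.0097), and the other LFCs lay between -1.32 and -0.87.

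**Figure D1:**
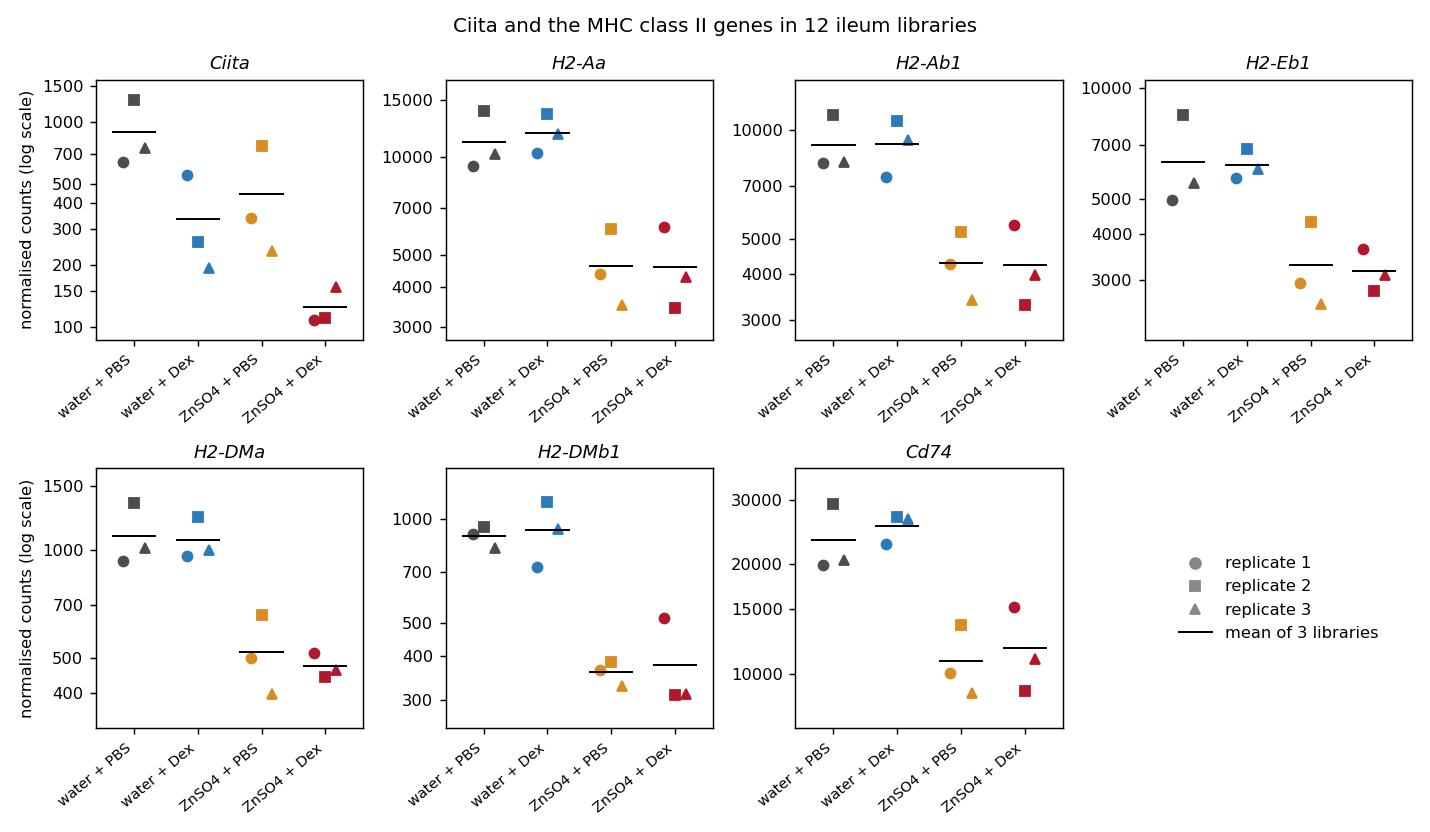
Normalised counts (log axis) of the 7 genes in each of the 12 libraries, by group, with a symbol for each replicate and a line at the mean of 3 libraries. For the 6 genes other than Ciita, all ZnSO4 libraries lie below all water libraries, and Ciita is lowest in ZnSO4 + Dex. The share of all genes with such a separation was not counted.

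The count for ZnSO4 in PBS mice depended on single libraries, although no LFC changed sign. It was 2 of 7 without water + PBS replicate 2, without ZnSO4 + PBS replicate 1 or without ZnSO4 + PBS replicate 3. Without the 4 libraries richest in B cells, which leaves 2 per group, the LFCs of the 6 genes were -1.32 to -0.92 and 2 genes were called, H2-DMa and Ciita (LFC -1.27, adjusted p = 0.049). In a fit of these 2 groups alone, 3 of 7 were called.
T cell markers moved with ZnSO4 too. Of 7 T cell markers, Cd8a was called lower in PBS mice (LFC -1.14, SE 0.21, adjusted p = 0.013), and their summed normalised counts lay between 883 and 1650 in water + PBS and between 434 and 949 in ZnSO4 + PBS. Of the plasma cell markers 1 of 5 was called lower (Derl3, LFC -0.90). In that list 4 of 5 had an unadjusted p under 0.05 by edgeR, and the median LFC was -0.9. Of the genes listed as dendritic cell markers 1 of 8 was called lower (Itgae, LFC -0.86), and the median LFC was -0.37. Which cells Itgae came from was not tested. Of the 10 macrophage and 6 epithelial markers none was called. These 3 names were chosen after their values were seen. With the mean level of the T cell markers as a covariate, 1 of 7 genes was called, H2-DMb1 (LFC -1.16, SE 0.25, adjusted p = 0.049), and the LFCs of the others were -0.82 to -0.12. Of the variance of this T cell score over the 12 libraries 69.3% lay between the groups, against 21.4% for the B cell score. The part of T cells in the result was not tested.

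In mice that also received Dex, ZnSO4 lowered the same 6 genes. The group means compared came from other libraries than in PBS mice. Both comparisons drew on 1 estimate of spread over all 12 libraries, so their calls are not independent. Of the 7 genes, 6 were called lower, where 1.2% of all genes were, and the median LFC was -1.17 beside 0.01 over all genes.
H2-Aa had 10299.5, 13612.2 and 11809.5 normalised counts in water + Dex and 6089.5, 3436.5 and 4296.3 in ZnSO4 + Dex (LFC -1.37, SE 0.25, adjusted p = 0.0099). H2-Ab1 moved from 7428.6, 10572 and 9366.4 to 5463.2, 3302 and 3984.5 (LFC -1.10, SE 0.22, adjusted p = 0.016), and H2-Eb1 from 5692.7, 6803.9 and 6031.7 to 3645.6, 2803.4 and 3100.2 (LFC -0.96, SE 0.22, adjusted p = 0.031). In all 3, the highest ZnSO4 + Dex library lay below the lowest water + Dex library. How many of all genes were separated in this way was not counted.
H2-DMa had 961.1, 1233.4 and 997.4 in water + Dex and 517.4, 441.9 and 462.4 in ZnSO4 + Dex (LFC -1.17, SE 0.19, adjusted p = 0.0052). For H2-DMb1, the values were 724.7, 1116.7 and 930.4 against 515.3, 309.4 and 310.8 (LFC -1.29, SE 0.20, adjusted p = 0.0044). Cd74 fell from 22685, 26915.5 and 26478.2 to 15183.9, 8979 and 10997.7 (LFC -1.11, SE 0.23, adjusted p = 0.019). ZnSO4 + Dex replicate 1 was the highest ZnSO4 library of all 6 genes here, although it was among the poorest in B cell markers.
Ciita had 553, 258.1 and 193.4 in water + Dex and 107.8, 110.5 and 157 in ZnSO4 + Dex. These libraries did not overlap, but the difference did not pass the test (LFC -1.42, SE 0.49, adjusted p = 0.14) unless the B cell score was held equal (LFC -1.04, SE 0.17, adjusted p = 0.0065). All 7 genes were called at an equal score. The count was 3 of 7 without water + Dex replicate 2, without water + Dex replicate 3, or without the 4 libraries richest in B cells. With the T cell score as a covariate it was 0 of 7, with LFCs from -1.07 for H2-DMb1 to 0.02 for Ciita. Here 3 of 7 T cell markers (Cd3d, Cd3e and Cd8a, named after their values were seen) were called lower, with summed counts of 877 to 1180 in water + Dex and 467 to 502 in ZnSO4 + Dex. Plasma cell and dendritic cell markers had 1 gene each called lower, and the 10 macrophage and 6 epithelial markers none.

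**Figure D2:**
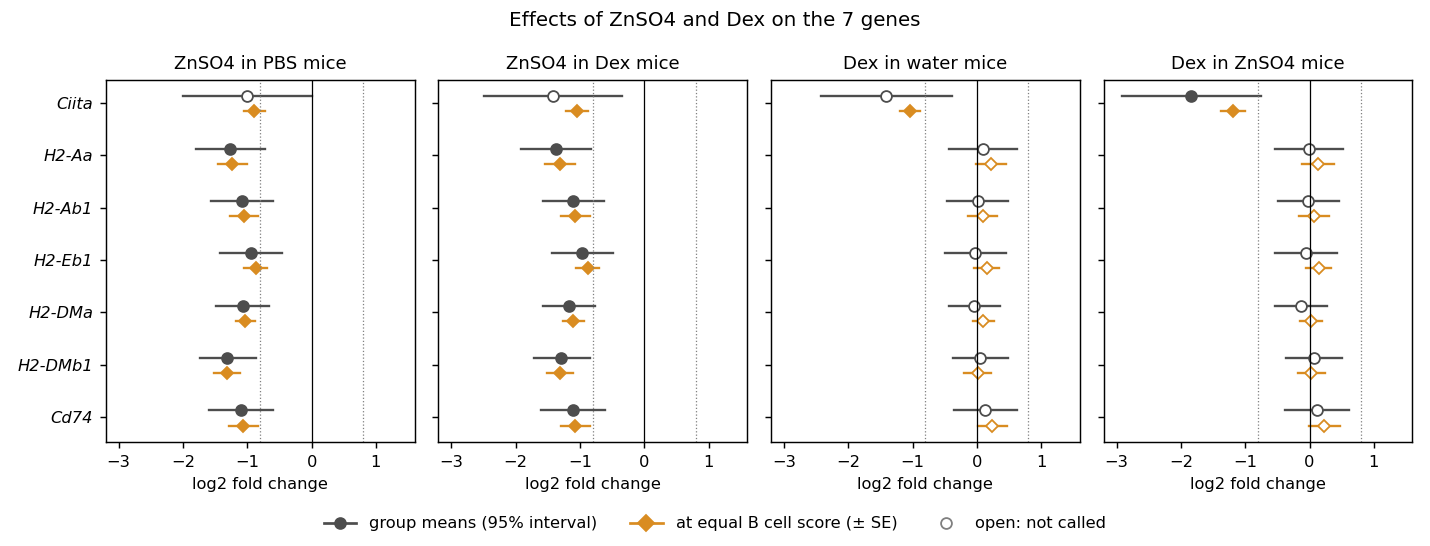
LFC of the 7 genes for ZnSO4 and for Dex, each in both settings of the other treatment. Grey circles are the fit of group means with 95% intervals, orange diamonds the fit at an equal B cell score with ± SE, open symbols were not called, and dotted lines mark an LFC of 0.8 in size. The 6 genes other than Ciita lie left of the line under ZnSO4 and near 0 under Dex. Ciita lies left of 0 under both, but in the fit of group means it was called only for Dex in ZnSO4 mice.

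With Dex, Ciita was the gene that moved, 2 h after the injection, and the other 6 genes had LFCs near 0. The comparison in water mice shares the water + PBS libraries with that of ZnSO4 in PBS mice. In ZnSO4 mice, 1 of the 7 genes was called lower, where 2.4% of all genes were: Ciita went from 341.3, 762.3 and 234.3 normalised counts with PBS to 107.8, 110.5 and 157 with Dex (LFC -1.84, SE 0.49, adjusted p = 0.028), to 0.28 times its level without Dex. No Dex library reached the lowest PBS library.
In water mice, 0 of 7 were called, where 1.64% of all genes were called lower. Ciita nevertheless had 553, 258.1 and 193.4 with Dex against 637.2, 1289.3 and 745.9 with PBS, again without overlap (LFC -1.41, SE 0.47, 95% interval -2.43 to -0.39, unadjusted p = 0.011, adjusted p = 0.086). It was the only one of the 7 with an unadjusted p under 0.05, and DESeq2 as run here also called 0 of 7 (adjusted p = 0.071 for Ciita). The study's own DESeq2 analysis, in contrast, lists Ciita as lowered by Dex in water mice at its cut-offs. The cause of this difference was not tested. At an equal B cell score Ciita was called in water mice (LFC -1.04, SE 0.16, adjusted p = 0.0019) and in ZnSO4 mice (LFC -1.19, SE 0.18, adjusted p = 0.001). It was also called in both without the 4 libraries richest in B cells (LFC -1.62 and -1.40, adjusted p = 0.0058 and 0.0086). In water mice, it was called without water + Dex replicate 1 (adjusted p = 0.033) or without ZnSO4 + PBS replicate 2 (0.041), the latter through the shared estimate of spread. In ZnSO4 mice the call was lost without ZnSO4 + PBS replicate 2 (LFC -1.21, adjusted p = 0.12), ZnSO4 + Dex replicate 1 (0.1) or ZnSO4 + Dex replicate 2 (0.088), and with the T cell score as a covariate (LFC -1.0, adjusted p = 0.091).
The other 6 genes had Dex LFCs of -0.04 to 0.13 in water mice and -0.13 to 0.11 in ZnSO4 mice. For H2-Aa in water mice, the 95% interval was -0.44 to 0.62, and over the 6 genes and both settings the intervals ran from -0.54 to 0.62. A fall of the size seen with ZnSO4 therefore lies outside them. Of the T cell markers 0 of 7 were called by edgeR with Dex in either setting. In water mice 1 of 7 had an unadjusted p under 0.05 and their median LFC was -0.28, and in ZnSO4 mice 4 of 7 had one and the median was -0.74, beside 0.01 over all genes. Their part in the Ciita result was not tested. The 14 B cell markers had median LFCs of -1.54 in water mice and -2.35 in ZnSO4 mice, with 0 called. Of the 8 dendritic cell markers 1 was called lower in both (Xcr1), with median LFCs of -0.45 in water mice and -0.21 in ZnSO4 mice. Of the 10 macrophage markers 1 was called higher in both (Mrc1), with medians of 0.04 and 0.19. In water mice the LFCs of these lists ran from -1.19 to 0.43 and from -0.58 to 0.89. Of the 6 epithelial markers 1 was called lower in each setting, with medians of 0.05 and -0.25. The 2 genes named were chosen after their values were seen.

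In the fit of group means, all 7 genes were called lower when both treatments were given. In ZnSO4 + Dex against water + PBS mice, 7 of 7 were called lower, where 4.56% of all genes were. The libraries did not overlap for any of the 7, but the share of all genes without overlap was not counted. Ciita had the largest change, to 0.14 times its level (LFC -2.83, SE 0.50, adjusted p = 0.0018). The LFCs of the other 6 lay between -1.28 (H2-Aa) and -0.98 (Cd74), close to those of ZnSO4 alone. With the B cell score held equal, 6 of 7 were called, H2-Eb1 being the exception at an LFC of -0.73, and Ciita's LFC was -2.08 (SE 0.18, adjusted p = 2.2e-05). With the T cell score as a covariate, 0 of 7 were called and Ciita's LFC was -1.13 (SE 0.48, adjusted p = 0.19). In this comparison 6 of 7 T cell markers were called lower. This comparison shares its libraries with the others and is no independent evidence.
The interaction of ZnSO4 and Dex, which asks whether the effect of one depends on the other, was called for 0 of 7 genes and for 0% of all genes. Without adjustment none of the 7 and 794 of the 15938 genes had a p under 0.05, and DESeq2 called 0 of the 7. The interaction LFC of Ciita was -0.42 (SE 0.66, 95% interval -1.88 to 1.03), and those of the other genes lay between -0.10 and 0.02. The interval of Ciita is wide, so a sizeable interaction was not detectable with 3 libraries per group. At an equal B cell score it was -0.15 (SE 0.23).

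Ciita rose with the B cell content of a library. Within the groups, Ciita rose by 0.29 log2 units per unit of B cell score (SE 0.03, adjusted p = 2.3e-04), and in 4 of 4 groups the order of the libraries by Ciita was their order by B cell score. It was the only one of the 7 genes called, where 2.86% of all genes had a called positive slope. The slopes of the other 6 lay between -0.02 (H2-DMb1) and 0.09 (H2-Eb1), none of them called, and their libraries followed the B cell order in 1 or 2 of 4 groups. A shorter B cell list again gave 1 of 7, and Ciita's slope stayed between 0.26 and 0.33 when each library was left out in turn.
In the library of each group with the lowest B cell score, with B cell sums of 536 and below, Ciita had 637.2 normalised counts in water + PBS replicate 1, 193.4 in water + Dex replicate 3, 234.3 in ZnSO4 + PBS replicate 3 and 107.8 in ZnSO4 + Dex replicate 1. H2-Aa had 9432.3, 11809.5, 3516.9 and 6089.5 in the same libraries. With 1 library per group these values carry no test.

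The class II genes outside the 7 rose with the B cell score. H2-DMb2 (a second beta chain of H2-DM), H2-Oa and H2-Ob (the chains of H2-DO, a modulator of H2-DM made mainly in B cells) and H2-Eb2 (an I-E beta-like chain) were all called for a positive slope on the B cell score, 4 of 4 tested, with slopes of 0.72 to 0.98. None of them was called in any comparison of treatments by edgeR, and none had an unadjusted p under 0.05, with SEs of at least 1. Their LFCs lay between -0.61 and -0.32 for ZnSO4 in PBS mice, -1.53 and -0.76 for ZnSO4 in Dex mice, -1.17 and -0.61 for Dex in water mice, -1.96 and -1.35 for Dex in ZnSO4 mice, and -2.28 and -1.93 for both treatments. At an equal B cell score those for ZnSO4 in PBS mice were -0.16 to 0.30.
H2-DMb1 and H2-DMb2 are neighbours, and both hold the X and Y pair. H2-DMb2 had 38.9, 561.9 and 127.3 normalised counts in water + PBS, 241.9, 52.9 and 31.3 in water + Dex, 81.1, 366.1 and 27.8 in ZnSO4 + PBS, and 23.8, 43.2 and 100.4 in ZnSO4 + Dex. The highest library of a group stood 4.22 to 14.4 times above the lowest, against 1.15 to 1.67 times for H2-DMb1. H2-DMb1 shares 31.4% of its stretches of 31 bases with H2-DMb2, and reads that map to more than 1 place were not counted, so both genes are measured by their distinct stretches.

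**Figure D3:**
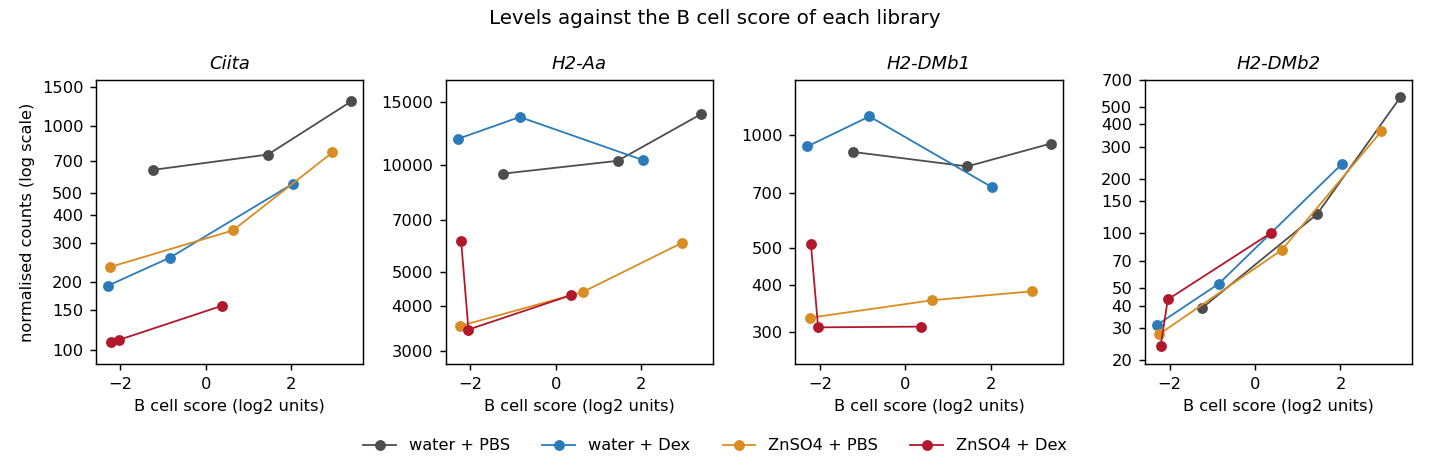
Normalised counts (log axis) of Ciita, H2-Aa, H2-DMb1 and H2-DMb2 against the B cell score of each library in log2 units, with the 3 libraries of a group joined by a line. Ciita and H2-DMb2 rise with the score in all 4 groups, and H2-DMb1 follows it in 1 of 4.

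The ratio of 2 transcripts within a library shows unequal change without any scaling between libraries. It does not correct for B cell content: the slope on the B cell score was 0.29 for Ciita and 0.07 (not called) for H2-Aa. Mean B cell scores were 1.21 in water + PBS, -0.36 in water + Dex, 0.45 in ZnSO4 + PBS and -1.29 in ZnSO4 + Dex. The part of B cell content in the ratios was not tested. Ciita had 6.76, 9.3 and 7.28 reads per 100 H2-Aa reads in water + PBS and 7.79, 12.6 and 6.66 in ZnSO4 + PBS, so the ratio was similar with and without ZnSO4. With Dex it was 5.37, 1.9 and 1.64 in water mice and 1.77, 3.21 and 3.65 in ZnSO4 mice. All 6 Dex libraries lay below all 6 PBS libraries. Over both kinds of drinking water the log2 ratio differed by -1.63 with Dex (0.324-fold, exact two-sided permutation test within drinking water, p = 0.005, the smallest of 400 relabellings) and by 0.14 with ZnSO4 (exact permutation p = 0.7).
The ratio of the I-A chains changed slightly with ZnSO4. H2-Aa had 117, 126 and 126 reads per 100 H2-Ab1 reads in water + PBS, 139, 129 and 126 in water + Dex, 102, 115 and 104 in ZnSO4 + PBS, and 111, 104 and 108 in ZnSO4 + Dex. The log2 ratio differed by -0.24 with ZnSO4 (exact permutation p = 0.005) and by 0.05 with Dex (exact permutation p = 0.24). The third ratio, H2-DMb1 to H2-DMb2, ranged from 1.05 to 29.7 and gave p = 0.48 for ZnSO4 and p = 0.31 for Dex in the same exact permutation test. These 3 ratios, 6 tests in all, were chosen after the levels had been seen. Their Benjamini-Hochberg adjusted values were 0.015 for the 2 smallest.

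**Figure D4:**
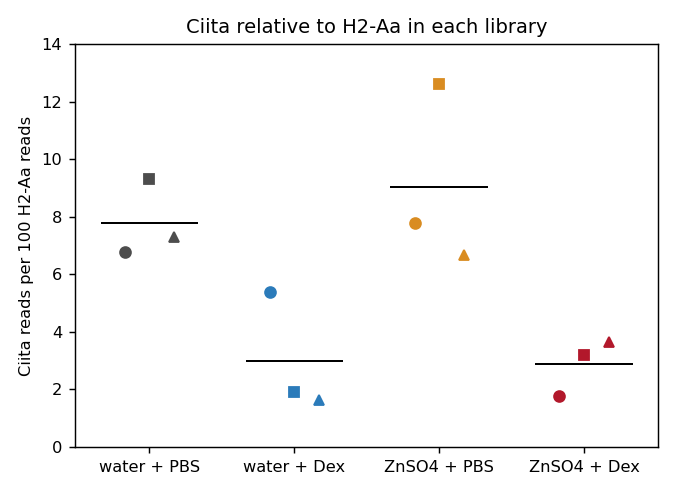
Ciita reads per 100 H2-Aa reads in each library (linear axis from 0), by group, with a line at the mean of 3 libraries. The 6 Dex libraries lie between 1.64 and 5.37 and the 6 PBS libraries between 6.66 and 12.6.

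Of 12 tested genes upstream of Ciita, several of the interferon pathway were called lower with Dex or with ZnSO4, and none was called higher in any comparison. Irf1, a transcription factor that acts on the interferon-gamma promoter of Ciita, had 3183, 3461.6 and 2563.6 normalised counts in water + PBS, 1300, 1353.2 and 1422 in water + Dex, 1844.2, 1772.7 and 1657 in ZnSO4 + PBS, and 843, 868.5 and 920.6 in ZnSO4 + Dex. The 4 groups did not overlap. Its LFC was -0.80 for ZnSO4 in PBS mice (SE 0.10, adjusted p = 0.0015), just past the cut-off and short of it under 9 of 11 other settings (LFC -0.802 to -0.698 over the 11), and -0.63 in Dex mice (adjusted p = 0.0055), short of it. Dex lowered it by LFCs of -1.18 in water mice (adjusted p = 2.2e-05) and -1.0 in ZnSO4 mice (adjusted p = 6.5e-05).
Socs1, an interferon-induced inhibitor of cytokine signalling, was low and fell most: 136.2, 138.5 and 90.3 in water + PBS, 39.6, 48.5 and 49.1 in ZnSO4 + PBS, 23.4, 21.6 and 28.1 in water + Dex, and 12.4, 7.7 and 28.8 in ZnSO4 + Dex. Its LFC was -1.41 for ZnSO4 in PBS mice (SE 0.32, adjusted p = 0.032), -2.31 for Dex in water mice (SE 0.34, adjusted p = 0.0012) and -2.90 for both (SE 0.36, adjusted p = 1.7e-04). The ZnSO4 LFC stayed between -1.58 and -1.3 under every alternative run, but the call was lost with the replicate number as a block (LFC -1.43, adjusted p = 0.052), with the dendritic cell and macrophage score (0.054), with the T cell score (0.14) and without the 4 libraries richest in B cells (0.095). It was also lost without water + PBS replicate 1 (0.11) or 2 (0.091), water + Dex replicate 1 (0.05), or ZnSO4 + PBS replicate 1 (0.12), 2 (0.065) or 3 (0.092). Irf8, a factor of myeloid cells and B cells, was called lower with Dex in water mice (LFC -1.34, adjusted p = 1.0e-04) and in ZnSO4 mice (LFC -1.11, adjusted p = 3.1e-04), and its ZnSO4 LFC of -0.74 in PBS mice was within the cut-off (adjusted p = 0.014). Irf4, a lymphocyte factor, was called only for both treatments (LFC -1.16, adjusted p = 0.026), and not at an equal B cell score (LFC -0.67, adjusted p = 0.11). Ifng, the gene of interferon-gamma itself, had 0 to 6 reads per library and was not tested.
In counts, 2 of 12 tested upstream genes were called lower with ZnSO4 in PBS mice (0.954% of all genes), 0 of 12 with ZnSO4 in Dex mice (1.2%), 3 of 12 with Dex in water mice (1.64%), 3 of 12 with Dex in ZnSO4 mice (2.4%) and 5 of 12 with both (4.56%). Of the 12, 5 had an unadjusted p under 0.05 for ZnSO4 in Dex mice.

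**Figure D5:**
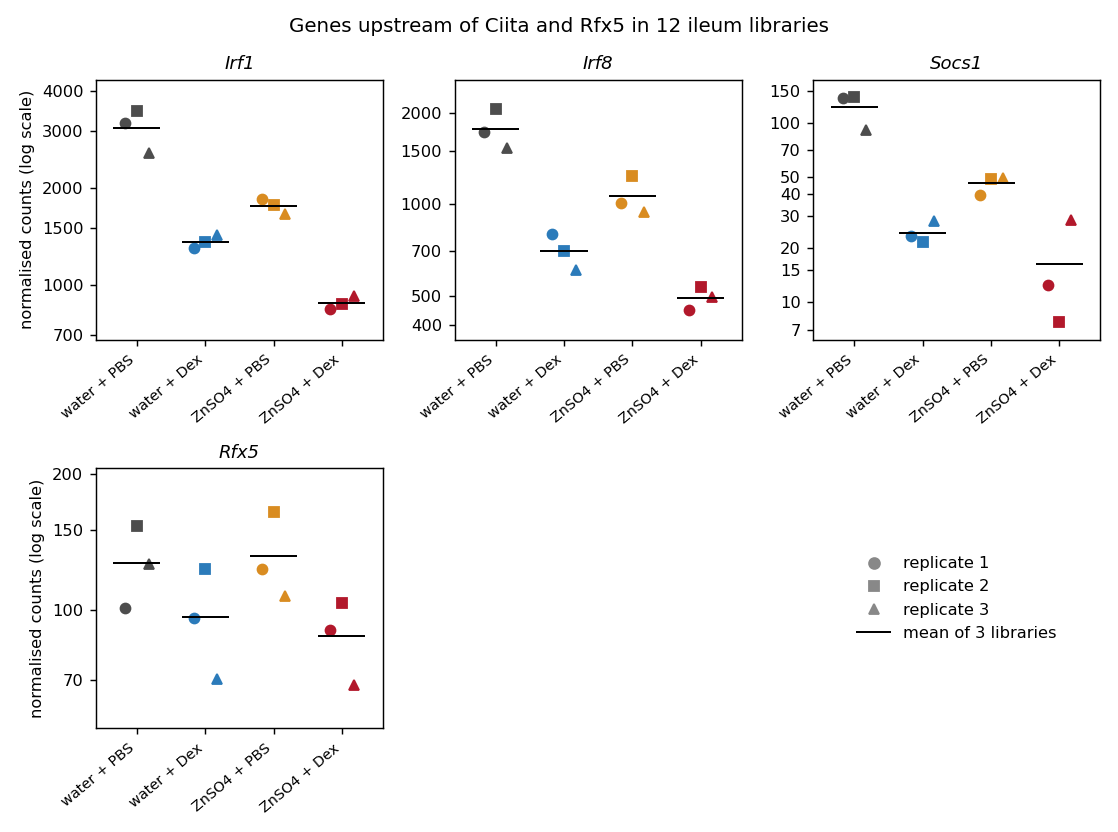
Normalised counts (log axis) of Irf1, Irf8, Socs1 and Rfx5 in each library, by group, with a symbol for each replicate and a line at the mean of 3 libraries. Irf1 and Irf8 step down from water + PBS to ZnSO4 + PBS to water + Dex to ZnSO4 + Dex, while the groups of Rfx5 overlap.

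Of the 7 factors that occupy the promoter module (subunits of RFX and NF-Y, and CREB), none was called by edgeR in any comparison, and 1 to 4 had an unadjusted p under 0.05. Rfx5, a DNA-binding subunit of the RFX complex, had 101.2, 153.5 and 126.4 normalised counts in water + PBS, 95.9, 123.1 and 70.2 in water + Dex, 123.5, 164.7 and 107.4 in ZnSO4 + PBS, and 90.2, 103.8 and 68.3 in ZnSO4 + Dex. Its LFC was 0.05 for ZnSO4 in PBS mice (95% interval -0.47 to 0.58) and -0.40 for Dex in water mice (-0.93 to 0.14). Of its exonic bases, 26.8% overlap another gene on the opposite strand. The median LFC of the 7 factors was -0.09 for ZnSO4 in PBS mice and -0.3 for Dex in water mice. With Dex in water mice, 4 of 7 had an unadjusted p under 0.05 by edgeR. The smallest adjusted p there was 0.0087, and the LFCs lay between -0.53 and 0, within the cut-off.
The enzymes and ligases that process class II molecules or remove them were not called by edgeR either, 0 of 7 in each comparison of treatments, and 1 to 4 had an unadjusted p under 0.05. Below the cut-off, Lgmn (legumain, a protease of endosomes) had an LFC of -0.50 with ZnSO4 in PBS mice (adjusted p = 0.0063) and -0.53 in Dex mice (adjusted p = 0.004). Sppl2a, the protease that clears the last fragment of CD74, had LFCs of -0.36 and -0.45 (adjusted p = 0.032 and 0.011). March1, a ubiquitin ligase that removes class II from the surface of B cells and dendritic cells, rose with the B cell score (slope 0.35, SE 0.05, adjusted p = 9.7e-04).

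Over the 12 libraries, which share the 4 treatments, the 6 genes other than Ciita ran closely together in log2 level, with Pearson's r from 0.921 (H2-Eb1 with H2-DMb1) to 0.995 (H2-Aa with H2-Ab1). Ciita ran less closely with them, at 0.457 to 0.634. Outside the 7, the genes most like H2-Aa by Pearson's r were Smpdl3a (0.973), C2 (0.968), Ubd (0.954), Acta1 (0.954) and B2m (0.949). C2 encodes a complement component, Ubd a ubiquitin-like protein, Acta1 skeletal muscle actin and B2m the light chain of MHC class I. The genes most like Ciita were Ptpn7 (0.981), Clasp1 (0.978), Cmah (0.97), AI504432 (0.969) and Gm19585 (0.967), of which Ptpn7 encodes a phosphatase of blood cells. These lists describe likeness over these libraries only.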

How the data were processed

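Ileum RNA-seq of 12 libraries (3 per group, grouped by the treatments in the labels) was analysed. According to the study's methods and the labels, stranded single-end libraries were trimmed, mapped to mm10 with HISAT2 2.0.4 and assigned to genes by featureCounts, leaving out multimapping reads. The annotation release and the strand setting are not given in the sources used here. The deposited values were raw counts, not normalised by the authors, for 54838 Ensembl identifiers, of which 54723 were matched to symbols and positions in the GENCODE annotation of GRCm38.

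Library totals lay between 10760132 and 11827487 reads. Genes were filtered with filterByExpr (minimum count 10), counts were scaled by TMM, and 1 quasi-likelihood model of 4 group means was fitted over all 12 libraries in R 4.3.3 with edgeR 4.0.16 (limma 3.58.1). The study used DESeq2, which is an alternative here (1.42.0). P-values were adjusted by Benjamini-Hochberg over 15938 genes. A gene was called at an adjusted p under 0.05 and an LFC beyond 0.8 in size, for the interaction and the score slopes at the adjusted p alone. SEs were derived from the F statistic as the absolute LFC over its root. Scores were means of log2 CPM (prior count 2) over a marker list, and cover no gene of the 7. The model was tested on simulated data with changes larger than most of those reported here. The simulation therefore does not bear on calls near the cut-off of 0.8. Intervals and limits cover counting error and the spread between libraries. The labels do not say that each library is 1 animal, so p-values measure the spread between these libraries. No pair of libraries within a group agreed within sampling noise (chi-square per degree of freedom 7.63 to 41). With 3 against 3 libraries, an exact permutation test of 1 gene cannot reach p = 0.05.

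The 7 genes and all gene lists were chosen with earlier results of these data known. The genes named were the 7, Rfx5 and Irf1, every pathway gene called in at least 1 comparison, a few cell markers and treatment checks, and the 5 genes most like Ciita and H2-Aa. Some genes of these lists are not reported here by name. Promoter sequences are those of RefSeq (GRCm38.p6). Alternatives were DESeq2, RLE and upper-quartile factors, 2 other filters, the replicate number as a block, fits of only the groups compared, covariates for B cells and for dendritic cells and macrophages, other cut-offs, and each library left out in turn. The T cell covariate and the fit without the 4 libraries richest in B cells were added after the data had been seen.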

Additional observations from a re-analysis of the deposited data

How the results depend on the processing

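The direction of ZnSO4 in PBS mice held for all 7 genes under every alternative run, but the number called did not. Of the 7, 6 were called lower as reported, 3 in a fit of only the groups compared, 1 with the T cell score as a covariate, 2 without the 4 libraries highest in B cell score and 0 when the LFC itself was tested against 0.8 (glmTreat), with 2 to 6 when each library was left out. For ZnSO4 in Dex mice the count of 6 became 0 with the T cell score, 3 without the 4 libraries and 0 with glmTreat, with 3 to 6 on leaving out a library. For Dex in water mice the count of 0 became 1 (Ciita) with all genes of at least 1 count, with the B cell, the dendritic cell and macrophage or the T cell score, and without the 4 libraries, with 0 to 1 on leaving out a library. For Dex in ZnSO4 mice the count of 1 became 0 with the T cell score and with glmTreat, with 0 to 1 on leaving out a library. For both treatments together the count of 7 became 0 with the T cell score and 1 with glmTreat, with 5 to 7 on leaving out a library. The interaction stayed at 0 and the slope on the B cell score at 1 under every alternative run. The T cell score and the fit without the 4 libraries were chosen after seeing the data. DESeq2 as run here gave the same counts as edgeR, although the study's own DESeq2 analysis lists Ciita as lowered by Dex in water mice. The cause of these shifts was not tested.

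Sign changes concerned LFCs near 0, apart from Ciita and Irf4. With the T cell score, Ciita for ZnSO4 in Dex mice was 0.0159 and Irf4 for both treatments 0.3. For Dex in water mice, H2-Ab1 was -0.00768 with upper-quartile factors. With the B cell score, the dendritic cell and macrophage score, the T cell score and without the 4 libraries, H2-Eb1 there was 0.148, 0.132, 0.131 and 0.289 and H2-DMa 0.0976, 0.0793, 0.0774 and 0.201. For Dex in ZnSO4 mice the same 4 settings gave 0.134, 0.0564, 0.335 and 0.269 for H2-Aa, 0.0694, 0.0284, 0.256 and 0.189 for H2-Ab1, and 0.138, 0.0241, 0.334 and 0.216 for H2-Eb1. H2-DMa was 0.0202 with the B cell score, 0.193 with the T cell score and 0.0899 without the 4 libraries. The interaction with the T cell score was 0.14 for Ciita, 0.115 for H2-Aa, 0.146 for H2-Ab1, 0.203 for H2-Eb1, 0.116 for H2-DMa and 0.158 for Cd74, and 0.216 for Ciita without the 4 libraries. With each library left out in turn, the LFC for Dex in water mice ranged from -0.0275 to 0.274 for H2-Aa, -0.124 to 0.167 for H2-Ab1, -0.176 to 0.234 for H2-Eb1, -0.172 to 0.134 for H2-DMa and -0.117 to 0.202 for H2-DMb1. With each library left out in turn, the LFC for Dex in ZnSO4 mice ranged from -0.264 to 0.22 for H2-Aa, -0.24 to 0.144 for H2-Ab1, -0.196 to 0.197 for H2-Eb1, -0.295 to 0.0723 for H2-DMa, -0.214 to 0.201 for H2-DMb1 and -0.119 to 0.309 for Cd74. With each library left out in turn, the LFC for the interaction ranged from -0.79 to 0.206 for Ciita, -0.356 to 0.13 for H2-Aa, -0.247 to 0.138 for H2-Ab1, -0.285 to 0.227 for H2-Eb1, -0.27 to 0.113 for H2-DMa, -0.268 to 0.175 for H2-DMb1 and -0.249 to 0.18 for Cd74.

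Libraries with the same replicate number did not deviate together (median r -0.0557 in 18 such pairs and 0.0225 in 36 pairs of unlike number), so they share only a number. The replicate block changed no count of the 7 genes. With it, the LFC for Dex in ZnSO4 mice was 0.0259 for H2-Aa and 0.00772 for H2-Ab1, and the interaction of H2-Eb1 0.00158. The number of libraries, 3 per group, limits the precision.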

Other observations

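Within the groups, Ciita, H2-Eb1 and H2-DMa also rose with the T cell score (slopes 1.3, 0.69 and 0.59 log2 units per unit, adjusted p = 0.039, 0.0054 and 0.0052 by edgeR), 3 of 7 genes, beside 522 of 15938 genes with a called positive slope. The T cell score was chosen after seeing the data.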
